A study of Homo sapiens with 2 samples.

Results

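The enzymes that break down fatty acids and handle ketone bodies were examined in HepG2 cells, an established human hepatoma line that keeps many hepatocyte functions, after treatment with hawk tea extract (HTE). A list of 37 genes was chosen by function, and a gene was taken from the arrays when the RefSeq transcript of a probe belonged to it. All 37 genes had a probe, and 36 of them were well above background on both arrays, among 23752 genes and unnamed transcripts measured in all. The one that was not is ACADL, the long-chain acyl-CoA dehydrogenase, which both arrays left short of well above background (processed signals of 37.3 and 19.0) and which has no ratio here.

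The samples were 1 array of cells given DMSO (dimethyl sulfoxide, the solvent, at 1 per mille) and 1 array of cells given HTE, an extract that was itself taken up in DMSO, both for 24 h and with no other agent named. The treatment protocol in the labels gives HTE at 200 μg/mL, whereas the name of the deposited HTE file carries 300, so these sources differ. The paper published with the arrays names the latter dose in its results. Both arrays were 1-colour (Cy3) Agilent arrays on the same slide with the same scan time. With 1 array per group there is no replicate, so no test was run, no p value is given, the spread between cultures is not known, and the array cannot be told apart from the treatment. What can be measured is technical error, and the ratio of HTE over DMSO had a median SD of 0.05 (log2) among replicate spots of a probe (688 probes) and of 0.16 among different probes of a gene (3759 genes).

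In total 60.6% (DMSO) and 56.6% (HTE) of the spots that are not controls were well above background, and no spot was saturated. The hepatocyte markers listed for this check (ALB, AFP, APOA1, APOA2, APOB, TTR, SERPINA1, TF and FGB) were all well above background on both arrays, with log2 ratios between -0.36 and 0.21. Of the markers of other cell types, 2 of 5 for fibroblasts, 2 of 4 for endothelial cells and 3 of 5 for leukocytes were measured, while COL1A2, DCN, LUM, CDH5, KDR, CD3E and ITGAM were not well above background on either array. The processed signals of the hepatocyte list summed to 820860 with DMSO and 793960 with HTE, those of the leukocyte list to 8522 and 6950, those of the endothelial list to 1046 and 347.0, and those of the fibroblast list to 638 and 384, where a list's sum is comparable between the arrays only. PECAM1 (log2 ratio of -1.82) and CD14 (-1.77) were lower on the HTE array by more than 2-fold, and their part in the results below was not tested. RNA came from whole cultures, in which fewer cells and less RNA per cell cannot be told apart.

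Fatty acids are first taken up and joined to coenzyme A, and long chains then cross into the mitochondrion as carnitine esters. There each round of β-oxidation removes a short piece through a dehydrogenase, a hydratase, another dehydrogenase and a thiolase, while electrons leave through the electron transfer flavoprotein. Peroxisomes shorten very long and branched chains with a related set of enzymes, and the liver turns much of the acetyl-CoA into ketone bodies for other tissues. Many genes of the pathway are targets of the nuclear receptor PPARA. Values below are log2 processed signals relative to the 75th percentile of each array, called levels, and log2 ratios of HTE over DMSO. A level belongs to its own probe, so it was compared between the arrays and not between genes.

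The sequence upstream of 5 of these genes is shown. HADHA and HADHB are the adjoining genes of the trifunctional protein, which start in opposite directions. SLC27A4 and BDH1 had the highest ratios of the list, and ACSL3 the lowest. RefSeq (GRCh38.p14) promoter windows, which run from 250 bases before to 50 bases after each start, were at hand for 30 of the 37 genes, 48 windows in all since some genes have several starts. Only bases before the start are printed. Capitals mark GC boxes, the letters GGGCGG on either strand. The windows of HADHA and HADHB overlap, and the 194 bases they share, upstream of both starts, lie at chr2:26244689-26244882 (printed on the + strand, that of HADHB). SLC27A4 is at chr9:128340277-128340526 (+ strand), ACSL3 at chr2:222860786-222861035 (+ strand), and BDH1 has windows at chr3:197573344-197573593 and chr3:197555969-197556218 (both - strand).
HADHA and HADHB: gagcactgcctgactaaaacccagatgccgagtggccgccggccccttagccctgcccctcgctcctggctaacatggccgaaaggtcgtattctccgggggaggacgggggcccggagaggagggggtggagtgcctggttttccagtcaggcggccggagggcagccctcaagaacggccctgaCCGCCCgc
SLC27A4: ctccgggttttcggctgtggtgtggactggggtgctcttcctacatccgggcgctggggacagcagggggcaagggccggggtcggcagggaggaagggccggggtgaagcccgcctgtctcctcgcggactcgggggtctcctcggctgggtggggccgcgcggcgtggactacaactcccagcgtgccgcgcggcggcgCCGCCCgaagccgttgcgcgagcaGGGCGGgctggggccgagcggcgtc
ACSL3: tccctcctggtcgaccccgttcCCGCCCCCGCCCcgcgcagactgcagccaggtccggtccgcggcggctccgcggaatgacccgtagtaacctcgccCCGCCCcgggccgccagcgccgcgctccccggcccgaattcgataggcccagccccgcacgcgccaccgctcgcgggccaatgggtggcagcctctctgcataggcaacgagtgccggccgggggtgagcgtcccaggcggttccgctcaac
BDH1, distal window: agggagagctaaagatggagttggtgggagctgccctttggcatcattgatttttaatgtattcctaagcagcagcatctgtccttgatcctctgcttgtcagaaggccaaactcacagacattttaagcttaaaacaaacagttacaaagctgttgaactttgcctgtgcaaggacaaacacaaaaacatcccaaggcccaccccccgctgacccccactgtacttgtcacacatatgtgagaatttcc
BDH1, proximal window: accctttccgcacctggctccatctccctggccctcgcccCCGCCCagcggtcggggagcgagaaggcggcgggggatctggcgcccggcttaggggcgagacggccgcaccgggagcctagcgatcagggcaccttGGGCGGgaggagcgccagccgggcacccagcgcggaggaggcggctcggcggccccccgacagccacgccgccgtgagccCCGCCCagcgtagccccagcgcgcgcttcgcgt

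GC content was 75.2% upstream of both SLC27A4 and ACSL3, and its relation to the ratios was not tested. The distal BDH1 window held no GC box and had a GC content of 45.6%, against 77.6% and 3 GC boxes in the proximal window, and the array does not tell from which start the BDH1 signal came. A GC box was found in 33 of the 48 member windows (68.8%), beside 45% of all 35116 windows, and the median GC content was 66.7% against 58.7%. On either strand, a sterol response element written as TCACNCCAC was found in 2 of the 48 windows (4.17%, against 1.13% of all), 1 of ACSL1 and 1 of ACSL6. The PPARA-type direct repeat AGGTCANAGGTCA (0.0228% of all windows), the element TCAAGGTCA of estrogen-related receptors, which contains one of its repeats (0.353%), and the amino acid response element TGATGCAA (0.866%) were in none of the member windows. Letters this rare over all windows would seldom be met among 48, so finding none says little about the members. The 250 bases before the starts of ACSL1 (chr4:184805554-184805803, - strand) and ACSL6 (chr5:131999694-131999943, - strand) that hold the sterol element are shown with that element in capitals. ACSL1 has 5 windows and ACSL6 has 7, and only the ones shown hold the element. The array does not tell from which start either signal came, and ACSL6 was dim. Any part of the element in the ratios was not tested.
ACSL1: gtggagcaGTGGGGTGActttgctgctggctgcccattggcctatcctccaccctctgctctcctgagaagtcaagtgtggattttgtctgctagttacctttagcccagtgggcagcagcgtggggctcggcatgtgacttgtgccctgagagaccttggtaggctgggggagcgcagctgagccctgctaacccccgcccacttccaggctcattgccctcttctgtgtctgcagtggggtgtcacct
ACSL6: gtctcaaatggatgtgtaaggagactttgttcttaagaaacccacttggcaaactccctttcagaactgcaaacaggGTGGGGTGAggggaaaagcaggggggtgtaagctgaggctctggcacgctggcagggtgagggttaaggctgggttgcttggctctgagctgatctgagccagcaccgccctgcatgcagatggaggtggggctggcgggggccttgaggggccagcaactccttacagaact

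Most of these genes differed little between the arrays. Of the 36 measured genes, 20 had a higher level with HTE and 16 a lower one, and the median log2 ratio was 0.05, beside 0.00 over all genes measured. With each array scaled to its median 15 of the 36 were higher, without scaling 12, and with scaling to the E1A spike-in control RNA 1 (SLC27A4), so the balance of higher against lower genes depends on the scaling. The ratio was within 0.3 of 0 for 24 of the 36 genes (66.7%), against 52.65% of all genes, and the median size of the ratio was 0.20 against 0.28. At 2-fold, 2 genes (SLC27A4 and BDH1) were higher, 5.56% of those measured beside a background of 5.25% of all genes, and 0 were lower, beside 3.03%. At 1.5-fold (0.585 on the log2 scale) 6 genes were higher (16.7%, background 12.4%) and 2 were lower (5.56%, background 10.5%). Among the 14638 genes with a name that both arrays measured well above background, as all these 36 were, the shares were 4.27% higher and 2.72% lower at 2-fold, and 11.9% higher and 9.26% lower at 1.5-fold. The shares among the enzymes were thus near the background, and the values of the single genes are the content of what follows.

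**Figure D1:**
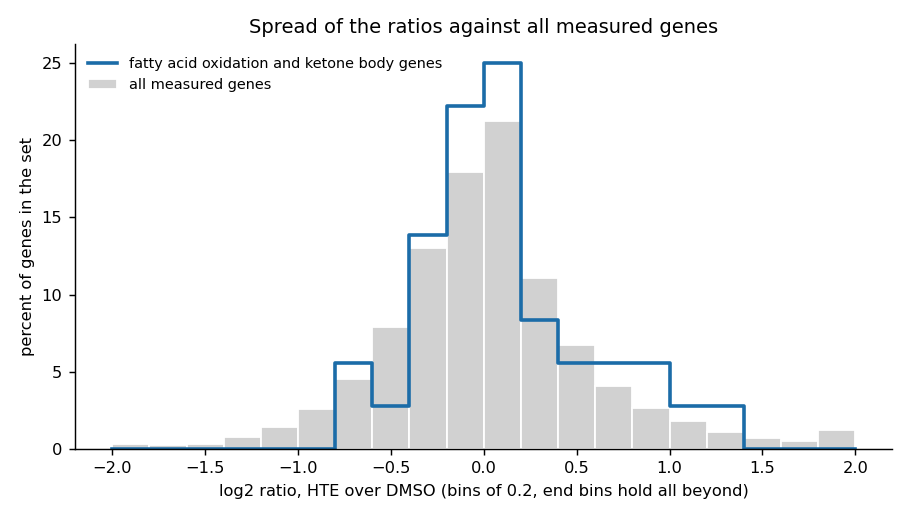
Percent of genes (y axis) in each bin of the HTE over DMSO log2 ratio (x axis, bins of 0.2, end bins holding all beyond), for all 23752 genes measured (grey bars) and for the 36 fatty acid oxidation and ketone body genes (blue line). The enzymes lie between -0.74 and 1.23, with 17 of 36 between -0.2 and 0.2.

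**Figure D2:**
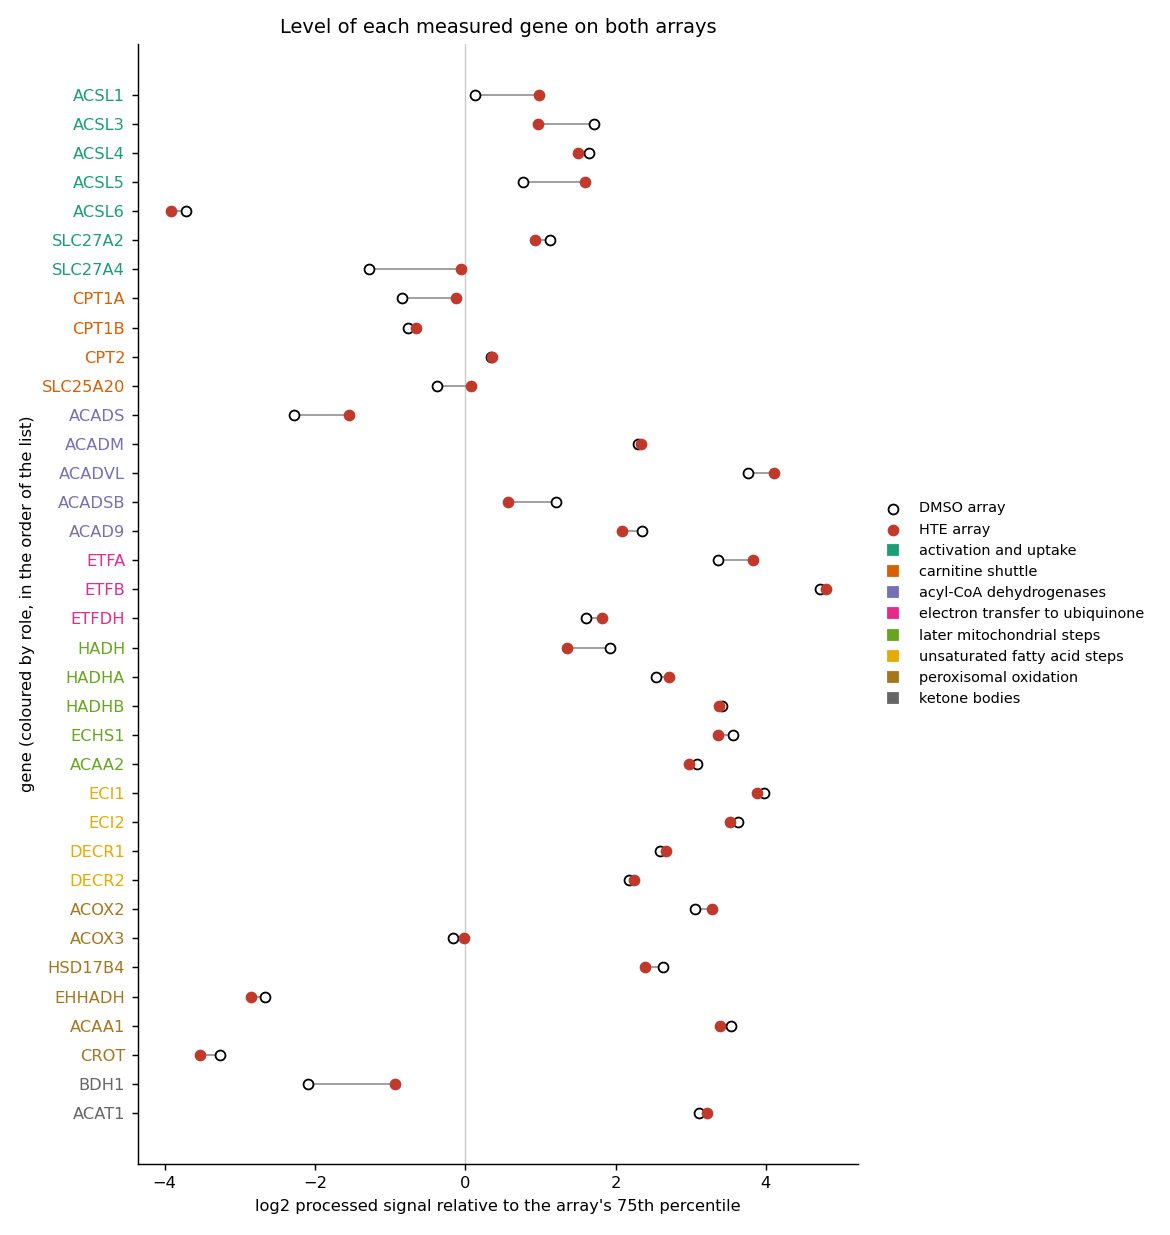
Level of each of the 36 measured genes on the DMSO array (open circles) and the HTE array (red circles), as log2 processed signal relative to the array's 75th percentile, 1 array per group. Long grey lines mark SLC27A4 and BDH1 among the genes higher with HTE and ACSL3 and ACADSB among those lower, and positions of different genes are not comparable because each has its own probe.

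The genes that activate fatty acids differed in direction. Long-chain acyl-CoA synthetases (the ACSL family) join a free fatty acid to coenzyme A, and SLC27A2 and SLC27A4 are transport proteins with acyl-CoA synthetase activity. SLC27A4 had the highest ratio of all the listed enzymes, from a level of -1.28 with DMSO to -0.05 with HTE, a log2 ratio of 1.23 (2.35-fold). ACSL1, the main form of liver and fat tissue, went from 0.13 to 0.98, a log2 ratio of 0.85 (1.80-fold), with an SD of 0.06 over 10 replicate spots. ACSL5, a form found at mitochondria and the endoplasmic reticulum, went from 0.76 to 1.59, a log2 ratio of 0.83 (1.78-fold). The ratios of these 3 genes were larger than the median SD among spots and among probes.

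ACSL3, which sits at the endoplasmic reticulum and lipid droplets, went the other way, from 1.71 to 0.97, a log2 ratio of -0.74 (1.67-fold lower) and the lowest ratio of the list. ACSL4, which prefers arachidonic acid, had levels of 1.64 and 1.5 (log2 ratio of -0.14). SLC27A2, a very long-chain acyl-CoA synthetase of liver, had levels of 1.13 and 0.93 (-0.20). ACSL6 was dim, at -3.72 and -3.92 (-0.21), and its other probe gave -0.55. Of the 7 genes 3 were thus at least 1.5-fold higher and 1 was at least 1.5-fold lower, also without scaling.

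All 4 genes of the carnitine shuttle had a ratio above 0, although CPT2 did so by less than the SD among spots. CPT1A, the liver form of the carnitine palmitoyltransferase that commits long chains to oxidation, went from -0.85 to -0.13, a log2 ratio of 0.72 (1.64-fold), with an SD of 0.05 over 9 spots. SLC25A20, the carrier that takes acylcarnitine across the inner membrane, went from -0.38 to 0.08, a log2 ratio of 0.46. CPT1B, the muscle form, had levels of -0.77 and -0.66 (0.11), and its transcript adjoins a readthrough transcript from which its probe was not told apart here. CPT2, which turns acylcarnitine back into acyl-CoA, had levels of 0.34 and 0.35, a log2 ratio of 0.02. Without scaling 2 of the 4 were higher, with spike-in scaling 0, and CPT1A without scaling was at 0.55, short of 1.5-fold.

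Acyl-CoA dehydrogenases, which start each round according to chain length, showed a spread of ratios. ACADS, for short chains, went from -2.28 to -1.55, a log2 ratio of 0.73 (1.66-fold). ACADM, for medium chains, stood at 2.30 and 2.34 (0.05), and ACADVL, for very long chains, at 3.76 and 4.11 (0.35). The enzyme for short branched chains of isoleucine breakdown, ACADSB, went down from 1.21 to 0.56, a log2 ratio of -0.65 (1.57-fold lower), with -0.46 at its other probe, short of 1.5-fold. ACAD9, which also serves in the assembly of respiratory complex I, had levels of 2.34 and 2.08 (-0.27), with -0.39 at its other probe. Of the 5 dehydrogenases measured, 1 was thus past 1.5-fold in each direction, and both probes of ACADSB and of ACAD9 were lower.

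**Figure D3:**
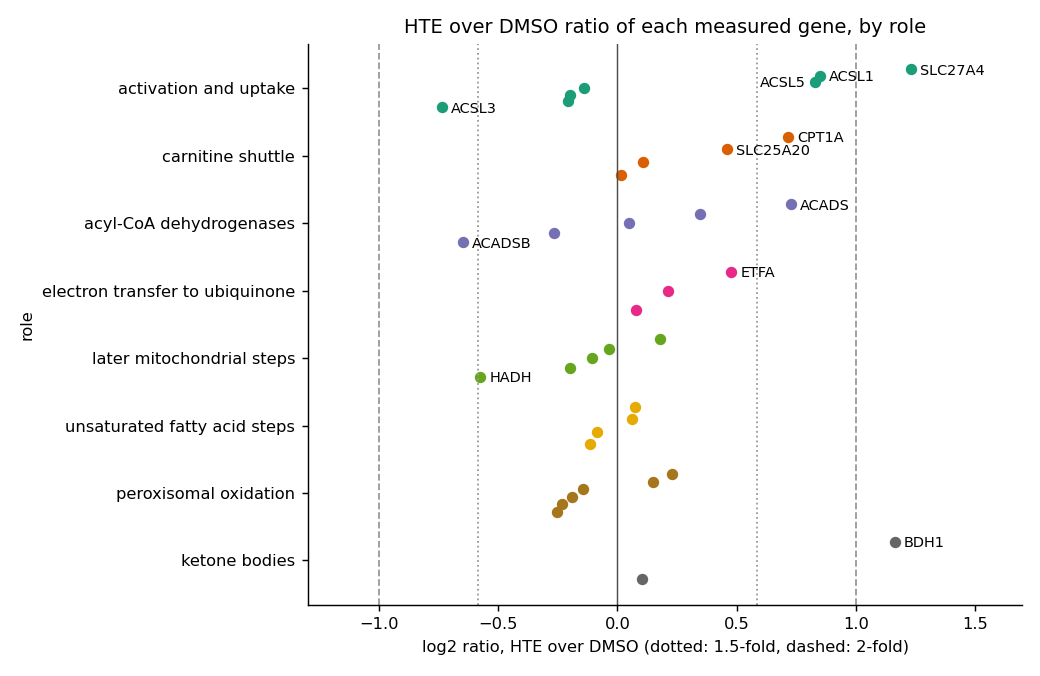
Log2 ratio of HTE over DMSO (x axis) for each of the 36 measured genes, grouped by role (y axis), with 1.5-fold as dotted and 2-fold as dashed lines and no error bars, since there is 1 array per group. Ratios past 1.5-fold are in activation and uptake, the carnitine shuttle, the dehydrogenases and the ketone body genes, while all 10 genes of the unsaturated and peroxisomal steps lie between -0.26 and 0.23.

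The electron transfer flavoprotein takes electrons from these dehydrogenases and passes them to ubiquinone through its own dehydrogenase, ETFDH. ETFA, the α subunit, went from 3.36 to 3.83, a log2 ratio of 0.48. ETFB, the β subunit, had levels of 4.72 and 4.79 (0.08), and ETFDH had levels of 1.60 and 1.81 (0.21). All 3 were thus higher, none by 1.5-fold, and ETFB was lower with quantile normalization (-0.05), with scaling to the median and without scaling (-0.09).

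The later steps of the mitochondrial round showed little difference except at HADH. HADHA and HADHB encode the subunits of the trifunctional protein, which carries out the last 3 steps for long chains, and share the upstream sequence printed above. HADHA stood at 2.53 and 2.71 (0.18) and HADHB at 3.41 and 3.38 (-0.04, and -0.06 at its other probe). HADH, the dehydrogenase for medium and short hydroxyacyl-CoA, went from 1.92 to 1.35, a log2 ratio of -0.58 (1.49-fold lower), just inside the 1.5-fold limit, which it passed without scaling (-0.75) and with scaling to the median. ECHS1, the short-chain enoyl-CoA hydratase, stood at 3.57 and 3.37 (-0.20), and ACAA2, the mitochondrial thiolase, at 3.08 and 2.97 (-0.11). Of these 5 genes 4 were lower, and 0 passed 1.5-fold.

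Enzymes that deal with double bonds were the closest to 0 of all the groups. ECI1 and ECI2, the enoyl-CoA isomerases, had levels of 3.97 and 3.88 (-0.09) and of 3.63 and 3.52 (-0.11). DECR1, the mitochondrial dienoyl-CoA reductase, had levels of 2.60 and 2.67 (0.07). DECR2, its peroxisomal counterpart, had levels of 2.18 and 2.24 (0.06), and its dimmer probe gave -0.09, the only gene of the list with probes on opposite sides of 0. With scaling to the median or without scaling all 4 were lower. None of the ratios given exceeded the SD among different probes of a gene.

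The ratios of the peroxisomal enzymes were also within 0.3 of 0. ACOX2, the oxidase for branched chains and bile acid precursors, went from 3.06 to 3.28, a log2 ratio of 0.23 with an SD of 0.03 over 9 spots. ACOX3 had levels of -0.16 and -0.01 (0.15). The others were lower, with HSD17B4, the D-bifunctional protein, at 2.63 and 2.40 (-0.23), EHHADH, the L-bifunctional protein and a PPARA target, at -2.66 and -2.85 (-0.19), and ACAA1, the peroxisomal thiolase, at 3.53 and 3.39 (-0.14). CROT, which makes carnitine esters for export from the peroxisome, was dim, at -3.27 and -3.52 (-0.26), and its dimmer probe, well above background on the DMSO array only, gave -0.50 as a bound. Of the 6 genes 4 were lower and 0 passed 1.5-fold in either direction.

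Of the ketone body enzymes on the list, BDH1 was more than 2-fold higher and ACAT1 hardly differed. BDH1, the mitochondrial β-hydroxybutyrate dehydrogenase that interconverts the main ketone bodies, went from -2.10 to -0.93, a log2 ratio of 1.17 (2.24-fold), and of 0.99 without scaling, just short of 2-fold. ACAT1 here is acetyl-CoA acetyltransferase, the mitochondrial thiolase that begins ketone body synthesis and ends their use, and not the sterol acyltransferase that has gone by the same name. It had levels of 3.11 and 3.21 (log2 ratio of 0.10), and its other probes gave 0.05 and 0.41.

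The 6 genes at least 1.5-fold higher kept their direction under every processing setting run except scaling to the spike-in RNA, which lowered each of these ratios by 1.22. Leaving that setting out, SLC27A4 ranged from 1.06 to 1.23, BDH1 from 0.99 to 1.17, ACSL1 from 0.68 to 0.86 and ACSL5 from 0.66 to 0.85. CPT1A ranged from 0.55 to 0.74 and ACADS from 0.56 to 0.73, so that both fell short of 1.5-fold at the low end. Of the genes that were lower, ACSL3 ranged from -0.91 to -0.71 and ACADSB from -0.82 to -0.46. With spike-in scaling SLC27A4 had a log2 ratio of 0.01 and the other 5 genes were below 0.

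**Figure D4:**
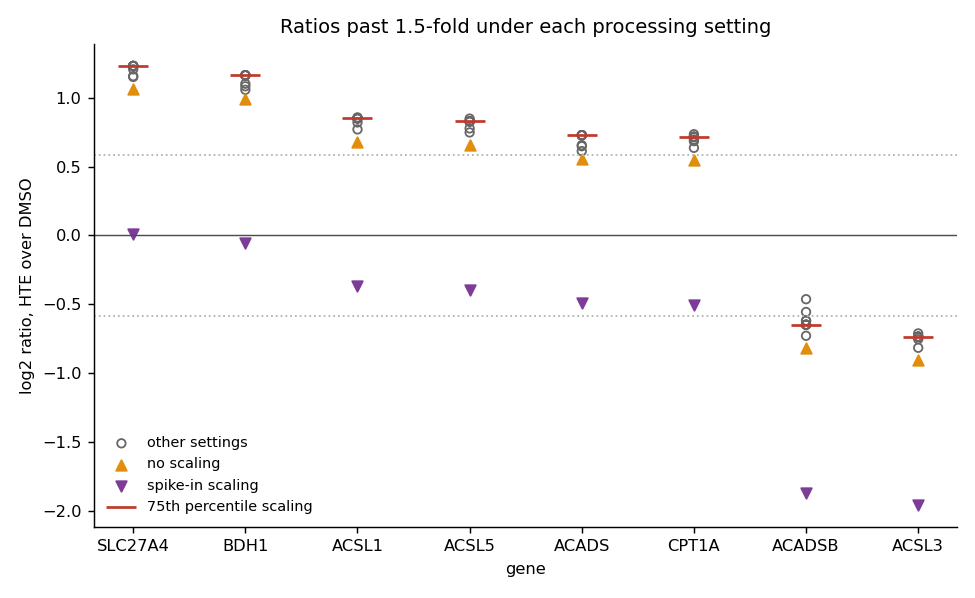
Log2 ratio of HTE over DMSO (y axis) of the 8 genes past 1.5-fold (x axis) with 75th percentile scaling (red bars), without scaling (orange triangles), with spike-in scaling (purple triangles) and under the other settings (open circles), with 1.5-fold as dotted lines. Spike-in scaling moves every gene down by 1.22, to 0.01 for SLC27A4 and to values below 0 for the other genes.

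To place these enzymes in their pathway, 56 further genes were taken from a written list, of which 52 were measured. At 1.5-fold 8 were higher (15.4%, background 12.4%) and 2 were lower (3.85%, background 10.5%), and at 2-fold 5 were higher (9.62%, background 5.25%) and 0 lower (background 3.03%). Among the other ketone body genes AACS, which returns acetoacetate to acyl-CoA in the cytosol, had the highest ratio, with levels of 0.88 and 1.08 (0.19). OXCT1, with which other tissues use ketone bodies, stood at -2.17 and -2.66 (-0.49), and HMGCLL1, an extramitochondrial lyase, at -2.31 and -3.01 (-0.69). Of the 5 genes of this group 1 was higher and 4 were lower, also without scaling, and with spike-in scaling all 5 were lower.

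A group of further genes known as PPARA targets, drawn up with earlier results known, was mostly higher with HTE. Of 11 measured, 10 were higher with HTE, 6 of them by at least 1.5-fold and 3 by at least 2-fold, with a median log2 ratio of 0.72. Over all genes, 10849 of 23752 were higher, and 12.4% were at least 1.5-fold and 5.25% at least 2-fold higher. Without scaling 10 of the 11 targets were higher, and with spike-in scaling 3. FGF21 is among the 10 and the 6 through a bound, and of the genes well above background on both arrays 9 of 10 were higher, 5 of them by at least 1.5-fold. CD36 and PEX11A, also known as PPARA targets but listed with other groups, were lower, with log2 ratios of -0.57 and -0.40. Other targets outside this group were not counted here, so the counts hold for this group and not for PPARA targets as a whole. G0S2, an inhibitor of triglyceride lipase, went from -5.25 to -3.24 (log2 ratio of 2.01), and VNN1, a pantetheinase, from -3.21 to -1.28 (1.93). G0S2 was dim with DMSO, where the lowest level well above background was -5.91. Its log2 ratio was 1.52 with normexp background correction. PLIN2, a lipid droplet coat protein, went from 2.45 to 3.72 (1.27). CIDEC, another droplet protein, had a log2 ratio of 0.82 and of 1.45 at its other probe, UCP2 one of 0.72, and FGF21, a liver hormone, was well above background with HTE only and at least 1.87-fold higher, or a log2 ratio of 0.58 and short of 1.5-fold with normexp background correction. HILPDA, a droplet protein induced by hypoxia, had levels of 0.57 and 0.53 (-0.03), the lowest ratio of the group. CIDEC, UCP2 and FGF21, named to complete the 6, and PEX11A were chosen after their values were seen.

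Among regulators, CREB3L3, a liver transcription factor of fasting, went from 2.24 to 3.61, a log2 ratio of 1.37 (2.59-fold), and was the only 1 of 11 past 1.5-fold at the brightest probe. With the second brightest probe 3 of 11 were, since the dimmer probes of ESRRA (0.87, against 0.30) and PPARD (0.60, against 0.03) also passed. That PPARD probe had levels of -5.72 with DMSO and -5.12 with HTE. The lowest levels well above background were close to these, at -5.91 and -5.24. PPARA itself had probes on opposite sides of 0, at 0.47 for the brighter and -0.40 for the dimmer, so no direction is given for it. PPARGC1A, a coactivator of PPARA, stood at -1.37 and -1.49 (-0.12) and PPARGC1B, a related coactivator, at -0.66 and -0.88 (-0.22), the lowest of the group. The median over the group was 0.01.

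In fatty acid uptake and binding, FABP3, a cytosolic binding protein typical of muscle, went from -3.71 to -2.31 (log2 ratio of 1.40). CD36, a fatty acid receptor of the cell surface, stood at -1.48 and -2.05 (-0.57). Of the 7 genes of carnitine supply and malonyl-CoA, 0 passed 1.5-fold in either direction, from ACACB (-0.29), whose product makes the malonyl-CoA that inhibits CPT1A, to CRAT (0.36). Among other peroxisomal genes PHYH, of α-oxidation, had the highest ratio, with levels of 1.48 and 1.77 (0.29), and PECR, a peroxisomal enoyl-CoA reductase, went from 2.30 to 1.55, a log2 ratio of -0.75 and the only 1 of 10 past 1.5-fold, against 2 without scaling and with the second brightest probe.

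**Figure D5:**
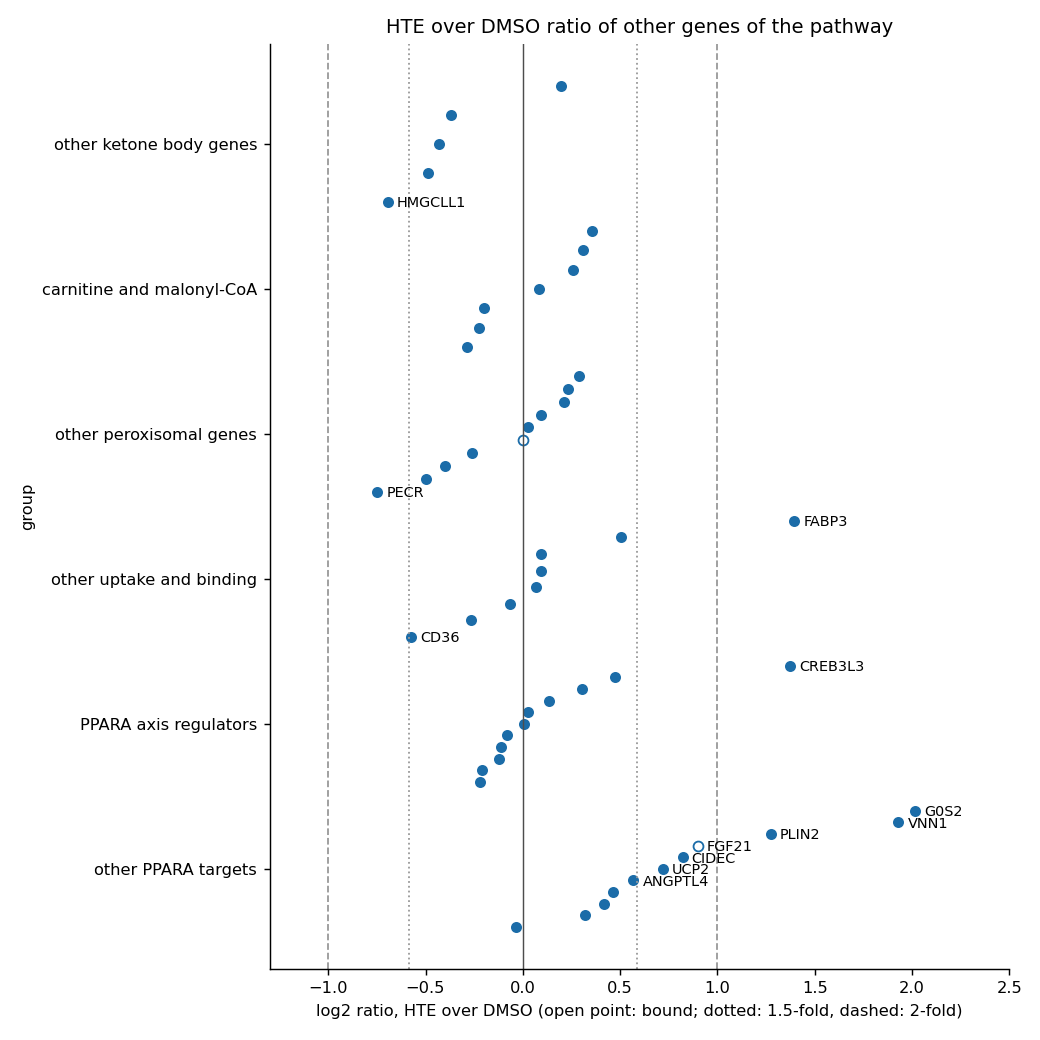
Log2 ratio of HTE over DMSO (x axis) for the 52 measured genes of the wider pathway in 6 groups (y axis), with open points for bounds and 1.5-fold and 2-fold as dotted and dashed lines. Past 2-fold are G0S2, VNN1, PLIN2, FABP3 and CREB3L3, all to the right. In the group of other PPARA targets all genes lie to the right of 0 except HILPDA at -0.03. CD36 and PEX11A, known targets listed with other groups, lie to the left of 0.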

How the data were processed

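HepG2 RNA labelled with Cy3 was hybridized to 1-colour Agilent SurePrint human arrays, 1 array for DMSO and 1 for HTE. The deposited values are intensities per spot made by the authors with Agilent Feature Extraction (version 10.7 in the labels, 11.5.1.1 in the file headers), with the background subtracted and no scaling between arrays.

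From these, spots marked as controls or outliers were removed, spots of a probe were averaged, and log2 processed signals were expressed relative to the 75th percentile of each array. A probe was kept when it was well above background on at least 1 array, and on the dim array a bound replaced its value. A gene was represented by its brightest kept probe (29680 kept probes, 23752 genes and unnamed transcripts). Probes were named through RefSeq accessions (28146 of 50532 probes), and the array's design build was not used for coordinates. Without replicates no test was run, and the number of arrays limits the precision. A ratio was counted by size alone, at 2-fold and 1.5-fold.

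Named with values on each array were enzymes past 1.5-fold, the highest and lowest ratio of each role group, those not well above background and those whose probes disagreed, as well as, in the wider pathway, genes past 2-fold, the extremes of each group and PPARA, PPARGC1A, OXCT1 and CD36. Some further pathway genes are not reported here and were left out of the counts of the wider pathway. The remaining enzymes were given to account for the whole list. The genes and lists were chosen with earlier results of these data known. Alternatives covered background correction (normexp with offset 50), scaling (quantile, median, none, E1A spike-in probes), the filter, outlier spots and the choice of probe. Scripts were tested on simulated data. Software was limma 3.58.1 in R 4.3.3, and pandas 2.3.3, numpy 2.4.6 and matplotlib 3.10.9 in Python 3.11.15.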

Additional observations from a re-analysis of the deposited data

How the results depend on the processing

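Scaling between the arrays was the choice that moved these results most, and with 1 array per group it cannot be told which scaling is right. Scaling to the 8 E1A spike-in probes well above background on both arrays, whose unscaled signal was 1.05 higher (log2) with HTE (0.45 to 1.57 over the probes), lowered every ratio measured on both arrays by 1.22 (bounds by other amounts) and the median of all genes by a like amount (-1.21). It left 0 enzymes at least 1.5-fold or 2-fold higher, 30 at least 1.5-fold lower and 26 at least 2-fold lower, with a median log2 ratio of -1.17. The log2 ratios of 19 of the 36 enzymes changed sign. Of the genes past 1.5-fold, those of ACSL1 (-0.37), ACSL5 (-0.39), CPT1A (-0.50), ACADS (-0.49), BDH1 (-0.057), UCP2 (-0.50) and CIDEC (-0.40) did so. Without scaling, which shifted the median of all genes by -0.16, 1 enzyme was at least 2-fold higher and the median was -0.12, and with scaling to the array median it was -0.027. With a gene's probes averaged, or with its second brightest probe, 1 enzyme was at least 1.5-fold lower, since ACADSB then fell short. Keeping every dim probe shifted the median of all genes by 0.20. The other counts past 1.5-fold or 2-fold over all the enzymes were within 1.5 times those reported. Counts past these limits within single groups moved by up to 2 genes, spike-in scaling aside. Counts of higher genes moved more, over all the enzymes from 20 to 12 without scaling. Without scaling they also moved from 5 to 2 in other uptake and binding, and from 6 to 3 among PPARA axis regulators. No paired analysis was possible because each group has 1 array.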
